A study of Mus musculus with 6 samples.

Results

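Iron crosses the jejunal epithelium through a short chain of proteins, and 10 genes of that chain and its control were followed here in intestinal epithelial cells (IEC) of mice with an epithelial deletion of the histone deacetylase genes Hdac1 and Hdac2. The genes were Mfi2, Trf, Tfrc, Slc40a1, Slc11a2, Cybrd1, Heph, Fth1, Ftl1 and Hamp, and all 10 were found by symbol among the 19616 genes of the deposited count table. They were chosen from results of the same comparison, so their differences between groups are given as a description, and no test of them is used as support. Sequenced RNA came from jejunal IEC enriched with EDTA, taken from 3 wildtype control mice (C1, C3 and C3-3) and 3 villin-Cre Hdac1-/-; Hdac2-/- mice (H1, H5 and H9), all aged 3 months, with 1 library per mouse. The villin promoter drives Cre in the epithelium, so the deletion of the floxed Hdac1 and Hdac2 alleles is directed to epithelial cells and not to the other cells that an EDTA fraction carries over. The mice had a mixed C57BL/6J, 129SV and CD1 background.

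In the enterocyte, ferric iron in the lumen is reduced by CYBRD1, enters through the transporter SLC11A2, is stored in ferritin (the heavy chain FTH1 and the light chain FTL1) and leaves at the basal side through ferroportin, encoded by Slc40a1, with the oxidase hephaestin. Hepcidin, the peptide encoded by Hamp and made chiefly by the liver, binds ferroportin and removes it from the membrane. Transferrin (Trf), also chiefly a liver product, carries iron in blood to the transferrin receptor TFRC, which enterocytes use on their basal side. Melanotransferrin, the product of Mfi2 (named Meltf in current annotation), is a membrane-anchored relative of transferrin that binds iron. Iron regulatory proteins bind a stem-loop, the iron responsive element, in some of these transcripts. They hold back translation from an element in the 5′ UTR and protect the transcript from an element in the 3′ UTR.

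The transcripts in which such an element was found are shown first. Counts of Tfrc can follow this control, while counts of the ferritin chains and Slc40a1 do not show its action on translation. The loop CAGTGN, with a C that bulges out 5 bases before it and with the 5 bases on each side of it able to pair, was searched on the transcribed strand of the annotated UTRs of GENCODE M21 (GRCm38). It was found in 4 of the 10 genes. A match of this kind was present in 0.136% of all genes with an annotated 5′ UTR and in 0.607% of those with a 3′ UTR. The elements of Fth1 (chr19:9982732-9982761, plus strand), Ftl1 (chr7:45459778-45459807, minus strand) and Slc40a1 (chr1:45925464-45925493, minus strand) lay in the 5′ UTR. The capitals mark the bulged C and the loop.
Fth1: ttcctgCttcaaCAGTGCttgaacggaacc
Ftl1: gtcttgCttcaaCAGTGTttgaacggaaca
Slc40a1: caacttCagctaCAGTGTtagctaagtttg
Tfrc held 4 elements in its 3′ UTR on the plus strand, at chr16:32631219-32631248, chr16:32631598-32631627, chr16:32631663-32631692 and chr16:32631710-32631739, given here in that order.
Tfrc element 1: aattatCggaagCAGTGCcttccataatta
Tfrc element 2: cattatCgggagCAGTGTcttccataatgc
Tfrc element 3: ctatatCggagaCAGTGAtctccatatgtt
Tfrc element 4: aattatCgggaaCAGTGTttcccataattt
In Mfi2, Trf, Cybrd1 and Hamp, the letters of the loop and bulge alone were also not found in either UTR. In Slc11a2 (3′ UTR) and Heph (5′ UTR), the letters were present without this pairing. The search required all 5 pairs, so it would miss an element with an unpaired base in its stem. It therefore cannot say that Slc11a2 or Heph lacks one. The letters alone are common, in 10.7% of all genes with an annotated 5′ UTR and 35.5% of those with a 3′ UTR.

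Promoters of 6 of the 10 genes (Mfi2, Tfrc, Cybrd1, Fth1, Ftl1 and Hamp) were matched in RefSeq (GRCm38.p6), and those of the pair with the lowest control levels, Mfi2 and Hamp, are shown over the 250 bases before the start. The Mfi2 promoter (chr16:31878560-31878809, plus strand) held 5 CG dinucleotides, marked by capitals, against a median of 6 over all 32851 promoters of the table.
Mfi2: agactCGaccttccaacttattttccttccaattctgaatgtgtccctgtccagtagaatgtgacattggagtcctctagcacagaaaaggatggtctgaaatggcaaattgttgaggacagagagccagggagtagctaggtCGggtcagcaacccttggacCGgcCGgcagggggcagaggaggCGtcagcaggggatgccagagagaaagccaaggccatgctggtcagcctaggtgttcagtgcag
In the Hamp promoter (chr7:30944030-30944279, minus strand), the capitals mark the letters TTCNNNGAA, which STAT factors recognise.
Hamp: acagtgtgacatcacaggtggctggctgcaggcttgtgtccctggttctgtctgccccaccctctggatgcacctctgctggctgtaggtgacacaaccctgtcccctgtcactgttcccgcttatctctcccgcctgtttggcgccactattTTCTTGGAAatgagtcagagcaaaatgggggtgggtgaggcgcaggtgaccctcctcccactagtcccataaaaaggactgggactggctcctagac
Hamp was the only 1 of the 6 genes with TTCNNNGAA on either strand of this window, and 7.02% of all promoters had it. The core ACGTG of the hypoxia response element, also read on both strands and also contained in the E-box CACGTG, occurred in 1 of the 8 member windows, the second of 2 annotated for Tfrc, and in 16.6% of all promoters. Neither motif occurred in the Mfi2 window.

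The libraries held 36111035 to 65902344 counted reads. A floor of 3 counts, below which no level is read, equals 0.0455 to 0.0831 CPM (counts scaled to a common library total), for counting error only. Hdac1 fell from 40.8 CPM in control IEC to 3.77 CPM in Hdac1/2-deleted IEC (log2 fold change -3.43), whereas Hdac2 was at 27.7 and 24.5 CPM with overlapping groups (log2 fold change -0.18). These gene-level counts therefore do not show the deletion of Hdac2, which rests on the labels. Epithelial markers (8 of 8 present) summed to 13574 to 15442 CPM in control mice and 11544 to 14080 CPM in Hdac1/2-deleted mice. Mouse C3 stood apart from the other control mice. Its Y chromosome transcripts summed to 55.5 CPM against at most 0.196 CPM in every other mouse. Xist was at 0.234 CPM in C3 and at 63.5 to 122 CPM in the others. By these transcripts C3 was the only male, so sex was not balanced between the groups. Its haemoglobin and other red blood cell markers summed to 73.1 CPM against 11.5 CPM in C3-3, 3.05 CPM in C1 and 12.8 to 22.1 CPM in Hdac1/2-deleted mice. Because C3 also held the highest control value of several members, values without C3 are given where they move.

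The largest difference among the members was in Mfi2 (ENSMUSG00000022780, chr16:31878810-31899020, plus strand). Its raw counts were 9 in C1, 9 in C3 and 16 in C3-3, and 7634 in H1, 8988 in H5 and 13411 in H9. Every Hdac1/2-deleted mouse thus stood far above every control mouse. Scaled by TMM, which corrects library totals for composition, Mfi2 was at 0.200 ± 0.0888 CPM in control IEC and 186 ± 72.3 CPM in Hdac1/2-deleted IEC (SD, n = 3 mice each), a ratio of means of 931. After scaling, H5 (237 CPM) was the highest, ahead of H9 (218 CPM) and H1 (103 CPM). The log2 fold change was 9.87 with a standard error of 0.50. With each mouse left out in turn, it ranged from 9.65 to 10.28.

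Trf (ENSMUSG00000032554, chr9:103204001-103230444, minus strand) followed at lower size. Its counts were 43 in C1, 62 in C3 and 61 in C3-3, against 6247 in H1, 3008 in H5 and 8471 in H9. After scaling, H5 (79.2 CPM) was close to H1 (84.3 CPM), and H9 was the highest (138 CPM). Trf was at 0.971 ± 0.279 CPM in control IEC and 100 ± 32.4 CPM in Hdac1/2-deleted IEC, with a log2 fold change of 6.70 (standard error 0.34). The ratio of Mfi2 to Trf counts was below 1 in every control mouse (0.145 to 0.262) and above 1 in every Hdac1/2-deleted mouse (1.22 to 2.99). Trf is abundant in hepatocytes, so hepatocyte markers were read beside it. They summed to 5.49 to 6.99 CPM in control mice and 1.74 to 3.69 CPM in Hdac1/2-deleted mice, with 5 of 8 present. Most of the sum was Hpd (mean 5.10 and 1.88 CPM), which with Alb (0.910 and 0.259 CPM) was called decreased. F9, encoding a clotting factor, was called increased (0.0173 and 0.289 CPM, log2 fold change 3.91, adjusted p = 0.00081, edgeR), and Cyp8b1 (mean 0.00503 and 0.0957 CPM) and Tdo2 (0.0384 and 0.0234 CPM) were too low to be tested. F9 had 1 count in each control mouse and met the filter on low counts only through its values in Hdac1/2-deleted mice. The part of hepatocyte RNA in the Trf value was not tested.

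**Figure D1:**
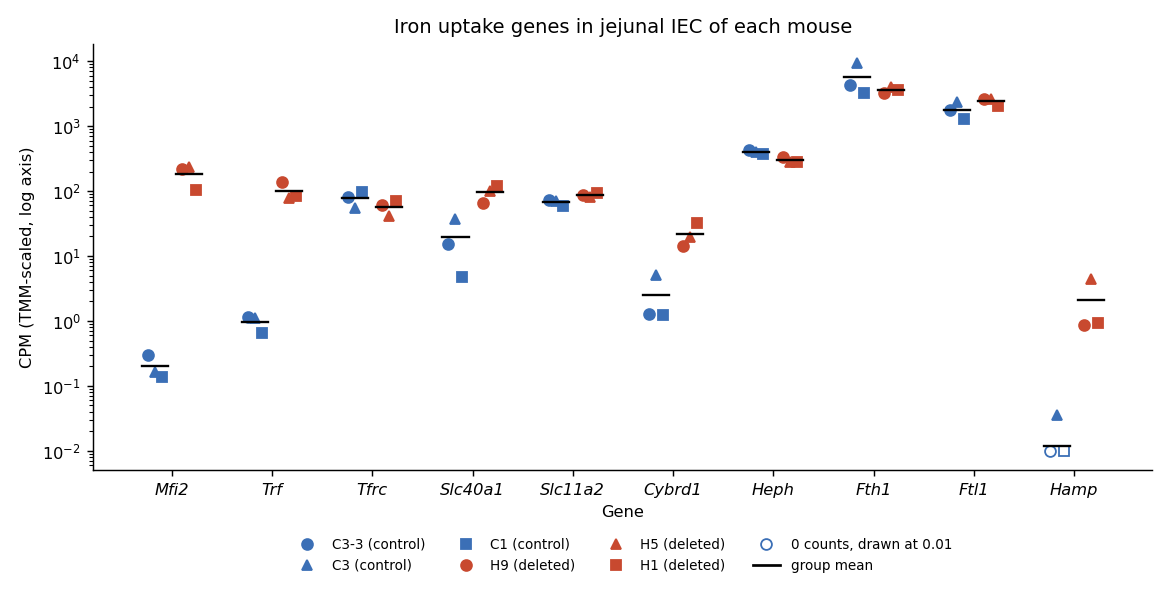
CPM of each of the 10 genes in each mouse on a log axis, with control mice in blue, Hdac1/2-deleted mice in red, and the group mean as a black bar (open symbols: 0 counts, drawn at 0.01). Mfi2 and Trf were at most 1.15 CPM in all 3 control mice and at least 79.2 CPM in all 3 Hdac1/2-deleted mice, while Tfrc, Fth1 and Ftl1 overlapped between groups.

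Tfrc, the receptor for transferrin (chr16:32608920-32632794, plus strand), did not share this pattern. It lies 710 kb from Mfi2 on chromosome 16. Its levels were 95.9 CPM in C1, 54.7 in C3 and 81.3 in C3-3, and 69.6 in H1, 40.8 in H5 and 61.2 in H9. The groups overlapped, with means of 77.3 ± 20.9 and 57.2 ± 14.8 CPM and a log2 fold change of -0.43 (standard error 0.25).

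At the luminal side, the reductase and the transporter differed in how far they moved. Cybrd1 (chr2:71117923-71142926, plus strand) had 82 counts in C1, 285 in C3 and 67 in C3-3, against 2375 in H1, 740 in H5 and 894 in H9. All Hdac1/2-deleted mice were above all control mice, but C3 was 4.14 times the lowest control mouse in CPM. The means were 2.54 ± 2.24 and 22.0 ± 9.04 CPM. The log2 fold change was 3.12 (standard error 0.65) and became 4.15 without C3. Slc11a2, the ferrous iron importer (chr15:100387898-100425072, minus strand), was at 57.9 to 72.8 CPM in control mice and 81.5 to 92.4 CPM in Hdac1/2-deleted mice. Its ranges did not overlap either, yet the ratio of means was 1.29 (log2 fold change 0.37, standard error 0.14).

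The ferritin chains took the largest share of these reads, 0.457% to 1.04% of all counts in a mouse. Fth1 (chr19:9980598-9985098, plus strand) was at 3275 CPM in C1, 9258 in C3 and 4363 in C3-3, and 3632 in H1, 4014 in H5 and 3206 in H9. C3 set the control mean of 5632 ± 3187 CPM, and the log2 fold change of -0.64 (standard error 0.36) was -0.07 without it. Ftl1 (chr7:45457944-45459884, minus strand) was at 1272, 2376 and 1747 CPM in C1, C3 and C3-3 and at 2048, 2635 and 2585 CPM in H1, H5 and H9, with a log2 fold change of 0.43 (standard error 0.24) that was 0.69 without C3. With all 6 mice, both chains overlapped between groups, and without C3 the Ftl1 ranges no longer did. The ratio of Fth1 to Ftl1 counts within a mouse separated the groups, at 2.57 in C1, 3.9 in C3 and 2.50 in C3-3 against 1.77 in H1, 1.52 in H5 and 1.24 in H9. Processed copies of the light chain gene in the table (Ftl1-ps1, Ftl1-ps2 and Ftl2-ps) held at most 369 counts in a mouse, but reads shared among copies make the values of Ftl1 less certain than those of single-copy genes.

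At the basal side, the exporter and the oxidase went opposite ways in level. Slc40a1 (chr1:45908068-45926523, minus strand) was at 4.76 CPM in C1, 37.8 in C3 and 15.4 in C3-3, and 119 in H1, 102 in H5 and 66.4 in H9. The control mice spread over 7.94 times, and every Hdac1/2-deleted mouse was above all of them. The means were 19.3 ± 16.9 and 95.9 ± 26.9 CPM. The log2 fold change was 2.31 (standard error 0.76), and it was 3.26 without C3 and 1.86 without C1. Ferroportin is also a macrophage gene. Macrophage markers (8 of 8 present, none at 0 in all mice) summed to 12.4 to 15.4 CPM in control mice and 27.5 to 50 CPM in Hdac1/2-deleted mice, and 4 of the 7 tested (Csf1r, Mrc1, C1qa and C1qb) passed the test as increased. The part of macrophages in the Slc40a1 value was not tested, and in such bulk samples a different number of cells of one type and a different amount of RNA per cell cannot be told apart. Heph, encoding hephaestin (chrX:96455359-96574485, plus strand), was at 366 to 428 CPM in control mice and 277 to 340 CPM in Hdac1/2-deleted mice, a ratio of means of 0.758 (log2 fold change -0.40, standard error 0.15) with no overlap.

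Hamp, encoding hepcidin (ENSMUSG00000050440, chr7:30942368-30944032, minus strand), was close to the limit of detection in control IEC, with 0 counts in C1, 2 in C3 and 0 in C3-3. Hdac1/2-deleted mice had 68 counts in H1, 170 in H5 and 54 in H9. Every mutant mouse was thus above the floor of 3 counts and every control mouse below it. In CPM these were 0.918, 4.48 and 0.878, so that H5 was about 5 times as high as the other Hdac1/2-deleted mice. Over the groups, 292 counts stood against 2, a ratio of 147 with an exact 95% counting interval of 40.4 to 1221. The fitted log2 fold change of 7.24 (standard error 1.16) depends on the prior count and ranged from 6.06 to 9.93 as single mice were left out. Hamp has a near-identical copy, Hamp2, that was not among the genes analysed here, so shared reads could be assigned to either. H5 was also highest for Lcn2, encoding a siderophore-binding protein (268 counts, against 160 in H1 and 110 in H9), and for Steap4, encoding a ferrireductase (583 counts, against 87 and 15). In CPM, H5 was the highest for Mfi2 as well, and for Ltf, Tfr2, Steap1, Hif3a and Hmox1, which are given below. H9 was the highest for Trf and H1 for Cybrd1. A peak in H5 was thus not particular to Hamp, Lcn2 and Steap4.

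A gene was called when it differed at least 2-fold with an adjusted p of at most 0.05 (quasi-likelihood test of edgeR, Benjamini-Hochberg over the 15618 tested genes). By this rule 4 of the 10 members were called increased (Mfi2, Trf, Cybrd1 and Hamp) and 0 decreased (also 0 with DESeq2, and 1 lower at an unadjusted p under 0.05), where 12.4% of all tested genes were called increased and 12.7% decreased. In 7 of the 10, the CPM ranges of the groups did not overlap, as in 53.2% of all tested genes. Since the members were chosen on this comparison, nothing is read from these counts. All 10 passed the filter on low counts, and Hamp and Mfi2 passed it only through their values in Hdac1/2-deleted mice. Just inside the call rule stood Cybrd1 (log2 fold change 3.12). Just outside it stood Slc40a1 (2.31), and whether it met the rule varied with the test, the scaling and the mice included. Nothing is read from this either.

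Divided by the length of their exons, the 10 genes formed different orders in the groups. In control IEC, Fth1 (1624 CPM per kb) and Ftl1 (1342) led and overlapped each other, followed by Heph (51.7), by Tfrc (12.5) and Slc11a2 (10.6), which overlapped, and by Slc40a1 (2.14). Cybrd1 (0.476) overlapped both Slc40a1 above and Trf (0.293) below, and Mfi2 (0.0483) and Hamp (0.0293) came last and could not be ordered. In Hdac1/2-deleted IEC, Ftl1 (1808) stood above Fth1 (1043) with no overlap. Mfi2 had become the third at 45 CPM per kb, not separated from Heph (39.2), and Trf (30.2) overlapped Heph as well. Slc11a2 (13.6), Slc40a1 (10.7), Tfrc (9.25), Hamp (5.10) and Cybrd1 (4.13) followed, each overlapping the next. Using the longest transcript as the length left the control order as it was. It exchanged Mfi2 with Heph, and Slc11a2 with Slc40a1, in Hdac1/2-deleted IEC.

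**Figure D2:**
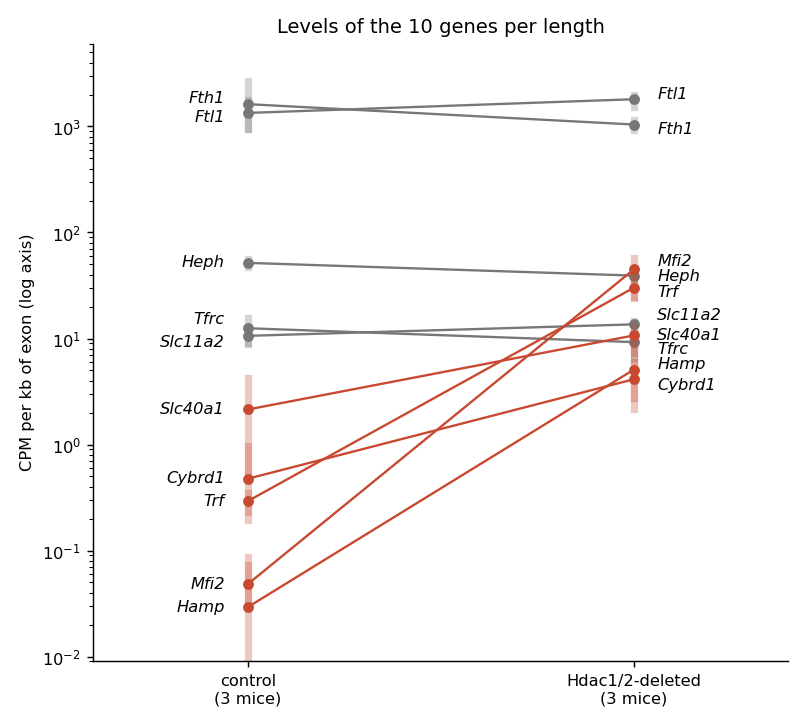
Mean level of each of the 10 genes in CPM per kb of exon on a log axis, in control and Hdac1/2-deleted IEC, with pale bars from the lowest to the highest of the 3 mice (the bar of Hamp in control IEC reaches 0 and is cut at the axis) and red for a ratio of means above 2. Mfi2 went from 0.0483 to 45 CPM per kb, level with Heph, and the 5 grey genes kept to within 2-fold.

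The closest relatives of Trf and Mfi2 were tested next, from lists that name genes by role. These lists, and those used below, were written with earlier results of these data known, so their p-values are read as description and not as independent support. Both other members of the transferrin family rose in Hdac1/2-deleted IEC. Ltf, encoding lactoferrin, went from 81 to 83 counts in each control mouse to 2249 in H1, 2487 in H5 and 3502 in H9 (log2 fold change 5.17, adjusted p = 1.2e-05, edgeR with Benjamini-Hochberg adjustment). In CPM, Ltf was at 30.4 in H1, 65.5 in H5 and 56.9 in H9. The transferrin relative 1300017J02Rik, which encodes an inhibitor of carbonic anhydrase, had 0, 2 and 0 counts in C1, C3 and C3-3 and 127, 89 and 137 in H1, H5 and H9, a ratio of 178 with an exact 95% counting interval of 48.9 to 1474 (adjusted p = 0.00011). Summed over Mfi2, Trf, Ltf and 1300017J02Rik, the family was at 2.04 to 2.97 CPM in control mice and 219 to 415 CPM in Hdac1/2-deleted mice. Tfr2, encoding the second transferrin receptor, rose from 5 to 9 counts to 203 to 292 (log2 fold change 5.42, adjusted p = 8.8e-05), while Hfe, whose product binds TFRC, fell from 2.73 to 1.09 CPM (log2 fold change -1.32, adjusted p = 0.011). Thus the low-level receptor Tfr2 rose where Tfrc did not pass the rule, and no test compared them. Both 1300017J02Rik and Tfr2 met the filter on low counts only through Hdac1/2-deleted mice, so for them only an increase could be called.

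Of 80 further iron genes, 71 were in the table and 69 were tested. Of these, 14 were called increased (20.3%) and 6 decreased (8.70%), against 12.4% and 12.7% of all tested genes. The genes given above made up 3 of the increased and 1 of the decreased. Their median log2 fold change was 0.01 against -0.008 over all genes tested. Among the 11 tested for iron uptake and reduction, Steap1 (log2 fold change 2.73, adjusted p = 0.0020) and Steap2 (2.06, adjusted p = 0.00036), of the STEAP metalloreductase family, the ferric reductase gene Frrs1 (1.05, adjusted p = 0.00050) and Lcn2 (4.45, adjusted p = 0.0018) rose in edgeR's test. The metal importer gene Slc39a8 (-1.45, adjusted p = 0.010) and Slc46a1, encoding a transporter of folate and haem (-1.15, adjusted p = 0.016), fell. Slc46a1 was short of 2-fold without C3 (-0.74) and did not pass without H5 (adjusted p = 0.057) or H1 (adjusted p = 0.066), and Frrs1 was short of 2-fold without H5 (0.96). Lcn2 met the filter on low counts only through Hdac1/2-deleted mice. Steap4 did not pass the rule in edgeR (4.28, standard error 1.69, adjusted p = 0.097), and most of its counts were in H5 (583). DESeq2 called 5 of the genes for iron uptake and reduction increased and 2 decreased, against 4 and 2 by edgeR. Of the 3 tested genes of cytosolic storage and release, 0 passed in edgeR or DESeq2, and 2 had an unadjusted p under 0.05. Pcbp1 and Pcbp2, encoding iron chaperones of ferritin, were at log2 fold changes of 0.59 (adjusted p = 0.0088) and -0.40 (adjusted p = 0.044), and Ncoa4, the ferritin receptor of autophagy, at -0.23 (adjusted p = 0.31).

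Genes that act on hepcidin were read beside Hamp. Of 7 tested, Bmp2 (log2 fold change 1.86, adjusted p = 0.00097), Fam132b (1.14, adjusted p = 0.0038), encoding erythroferrone, and Gdf15 (1.81, adjusted p = 0.0091) rose, all by edgeR's test. The list does not separate genes that raise hepcidin from genes that lower it, and no link to Hamp was tested. Fam132b overlaps Ilkap on the opposite strand, and how strand was counted is not given in the sources used here. Without H1 it was just under the 2-fold limit (log2 fold change 0.99). Bmp6 was below the filter, with 1 to 13 counts a mouse.

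Among 11 tested genes of iron and oxygen sensing, 1 was called increased and 1 decreased, the median log2 fold change was -0.54, and 6 had an adjusted p of at most 0.05. By that limit on p alone, 3198 of all 15618 tested genes were higher and 3168 lower. Epas1, encoding HIF-2α, the factor known to drive Cybrd1, Slc11a2 and Slc40a1 in the enterocyte, fell from 82.7 to 23.5 CPM (log2 fold change -1.82, adjusted p = 0.00012). Hif3a, encoding HIF-3α, had 40 counts in C1, 21 in C3 and 33 in C3-3 against 8200 in H1, 7621 in H5 and 8436 in H9 (log2 fold change 8.12, adjusted p = 2.3e-06). Hif3a was, like Mfi2, at under 1 CPM in every control mouse. The iron regulatory protein gene Aco1 was lower at less than 2-fold (-0.57, adjusted p = 0.033), as were Egln2 (-0.65, adjusted p = 0.0043), encoding a prolyl hydroxylase of HIF, Arnt (-0.61, adjusted p = 0.0090), encoding the partner subunit of HIF, and Vhl (-0.68, adjusted p = 0.010), whose product marks HIF for breakdown. Ireb2, encoding the other iron regulatory protein, was at -0.33 (adjusted p = 0.39).

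**Figure D3:**
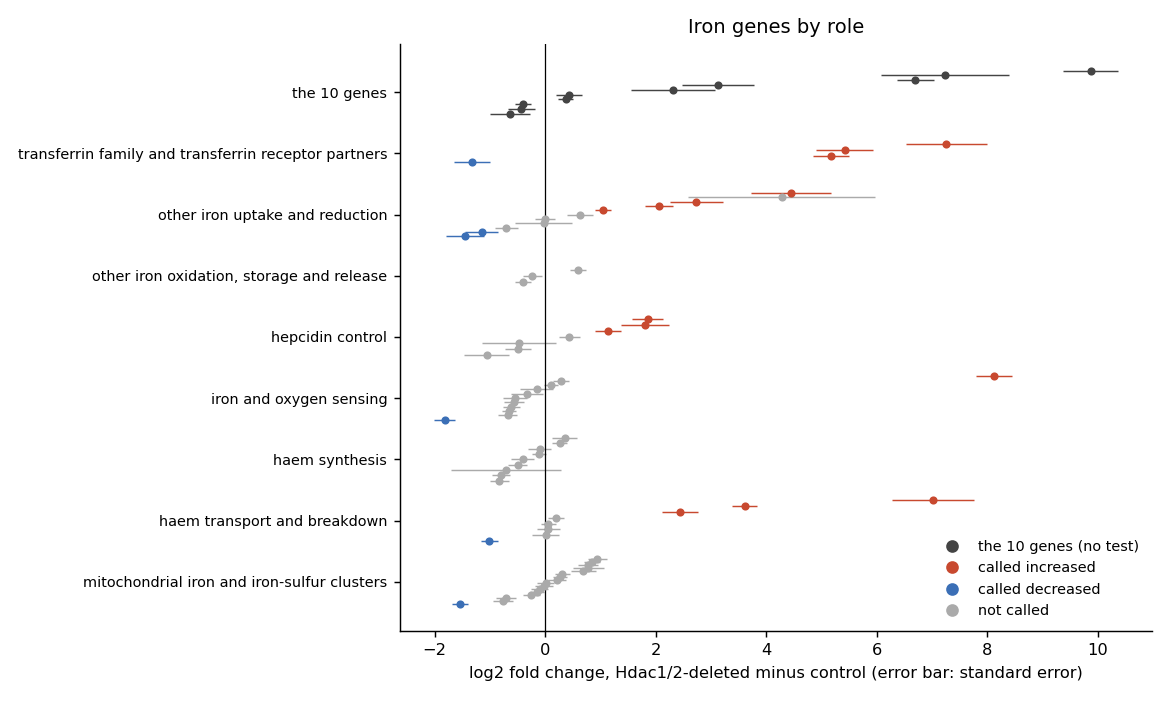
Log2 fold change (Hdac1/2-deleted minus control) of the 10 genes in dark grey, without a test, and of the 69 other tested iron genes by role, with bars for the standard error and red or blue for genes called increased or decreased. In the transferrin family and receptor list 3 of 4 genes lay above 5 and Hfe lay below 0, while none of the 9 haem synthesis genes was called.

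The surroundings of Mfi2 and Trf were then examined, taking the 3 genes of the table nearest on each side. On the higher side of Mfi2, the pseudogene Gm15703, 26.0 kb away, went from 2 to 3 counts in each control mouse to 90 in H1, 40 in H5 and 112 in H9 (log2 fold change 4.82, adjusted p = 0.00012, edgeR). Next to it, Pigz, encoding a mannosyltransferase of the GPI anchor pathway and 34.8 kb away, had 1 count in all control mice together and 245, 87 and 133 in H1, H5 and H9, a ratio of 469 with an exact 95% counting interval of 83.7 to 18546 (adjusted p = 4.2e-05). Both Gm15703 and Pigz met the filter on low counts only through Hdac1/2-deleted mice, so for them only an increase could be called. NCBP2-AS2, 48.0 kb away, was at 32.9 and 38.6 CPM (adjusted p = 0.34). On the lower side, Dlg1, only 3.68 kb from Mfi2, was not called (log2 fold change 0.29, adjusted p = 0.096), nor was Gm15743 (0.50, adjusted p = 0.31). Bdh1, 420 kb away and encoding a ketone body dehydrogenase, rose 2.23-fold in mean (log2 fold change 1.16, adjusted p = 0.00043).

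Around Trf, the nearest gene on the higher side was its relative 1300017J02Rik, 20.1 kb away, whose increase is given above, and the following genes Topbp1 and Cdv3 were not called (log2 fold changes 0.43 and 0.54, adjusted p = 0.21 and 0.021). On the lower side, Srprb, 1.86 kb away, was not called (0.42, adjusted p = 0.11). Rab6b rose from 2 to 11 counts to 22 to 29 (log2 fold change 2.02, adjusted p = 0.018), a call lost without C3-3 (adjusted p = 0.054), C3 (0.052) or H5 (0.061), and Slco2a1, encoding a prostaglandin transporter, fell (-1.84, adjusted p = 0.00038). Within 1 Mb of Mfi2, 4 of 30 tested genes were called increased and 2 decreased. Within 1 Mb of Trf, 3 of 16 were called increased and 3 decreased. Over all tested genes, 12.4% were called increased and 12.7% decreased, so nothing particular to these windows is read from the counts. Ltf, though on chromosome 9 as well, lies 7789 kb from Trf.

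**Figure D4:**
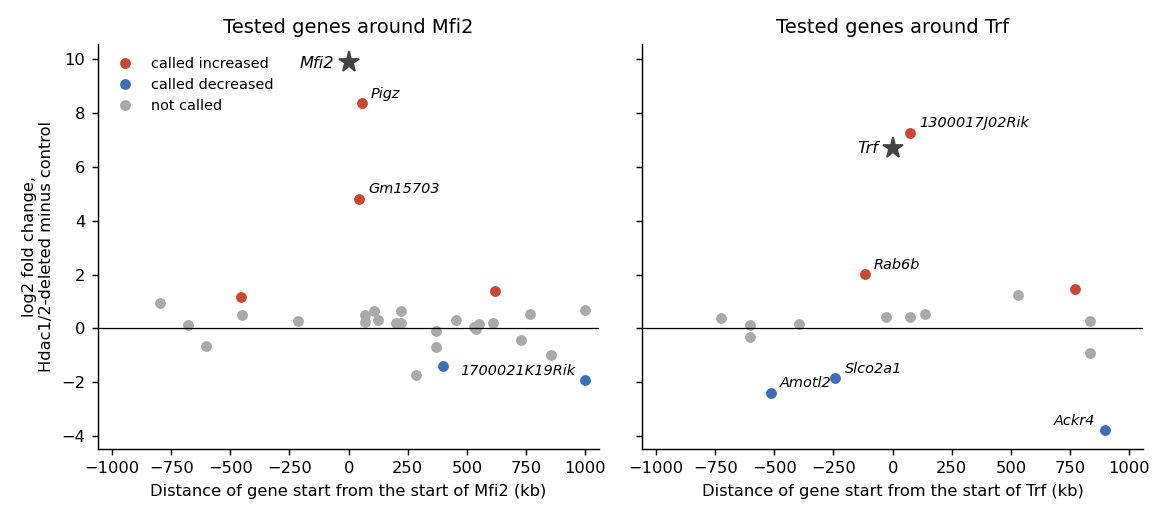
Log2 fold change of every tested gene whose start lies within 1 Mb of the start of Mfi2 or Trf (stars), against the distance between starts in kb. Gm15703 and Pigz lie beside Mfi2 and 1300017J02Rik beside Trf, while most other genes in both windows lie near 0.

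The genes whose profile over the 6 mice was most like that of Mfi2 or Trf were found by the smallest root mean square difference of log2 CPM, each gene centred on its own mean. For Mfi2 these were Fga, encoding a fibrinogen chain (0.381), the imprinted non-coding RNA H19 (0.437) and the growth factor gene Igf2 (0.556). Fga had 0, 2 and 6 counts in C1, C3 and C3-3 and 2704, 4046 and 4409 in H1, H5 and H9. In CPM, the latter were 36.5, 107 and 71.7. H19 rose from a mean of 5.46 CPM to 4141 CPM, a level far above that of Mfi2, and Igf2 from 3.43 to 1376 CPM. For Trf they were Apom, encoding apolipoprotein M (0.289), Lama5, encoding a laminin chain (0.295), and Nynrin (0.329). Apom went from 0.299 to 47.8 CPM and Lama5 from 2.13 to 172 CPM. This is a likeness of pattern over 6 mice only, dominated by the step between the groups.

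**Figure D5:**
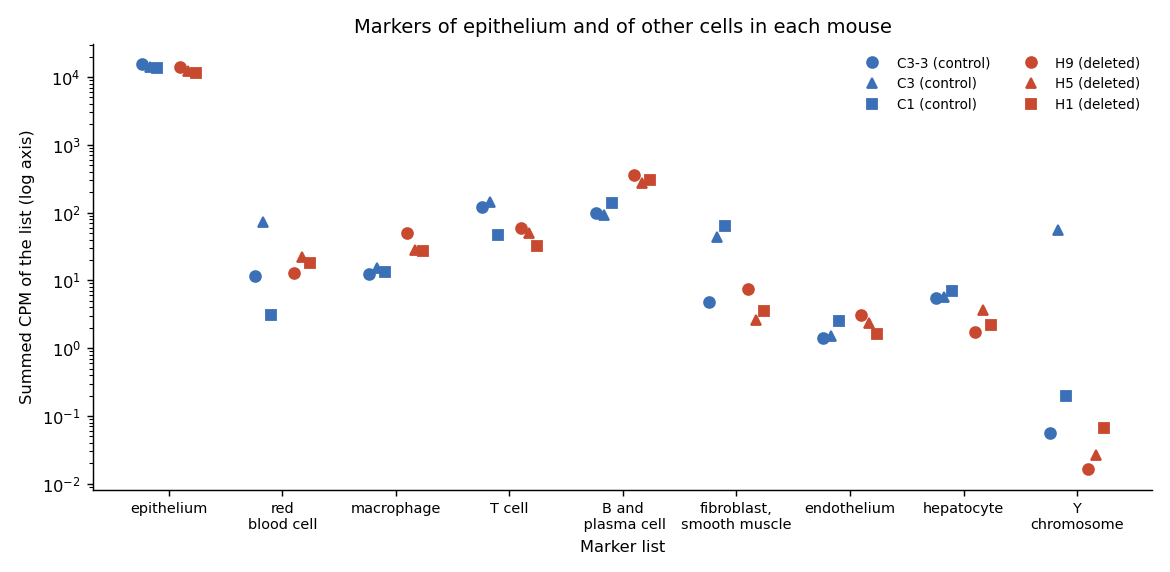
Summed CPM of each marker list in each mouse on a log axis. Epithelial markers were at 11544 to 15442 CPM in all 6 mice, the summed hepatocyte list, mostly Hpd, was lower in all Hdac1/2-deleted mice although F9 rose, the summed macrophage list was higher in all of them, and C3 was alone in holding Y chromosome transcripts above 0.2 CPM.

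Of the other marker lists, T cell markers summed to 46.2 to 141 CPM in control mice and 32.3 to 58.8 CPM in Hdac1/2-deleted mice. They did not move together, with Cd3g and Cd8a called decreased and Cd4 called increased among 7 tested. Markers of B and plasma cells summed to 93.4 to 137 and 277 to 359 CPM, a difference carried by Sdc1 (84.9 and 294 CPM), which epithelial cells also express. Those of fibroblasts and smooth muscle summed to 4.80 to 63.0 and 2.63 to 7.36 CPM, with 4 of 7 tested (Dcn, Acta2, Myh11 and Des) called decreased. Those of endothelium summed to at most 3.06 CPM in any mouse. Their part in the values of Mfi2, Trf and Hamp was not tested.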

How the data were processed

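Poly(A) RNA of jejunal IEC (RIN above 6.5 per the study's methods) was made into directional libraries and sequenced in pairs. Per their methods, the authors aligned to GRCm38 with STAR, whereas their processing notes list STAR 2.4.0f1, bcl2fastq 1.8.4 and mm9. The counting program, strand setting and annotation are not given in the sources used here. The authors deposited raw counts for 19616 genes, with a row total of at least 10. The deposited table further holds counts multiplied by a factor per sample (6 columns) and the authors' own comparison (log fold changes, mean log CPM, p-values and adjusted p-values), none of which was used.

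Counts were filtered with filterByExpr, scaled with TMM and fitted with edgeR 4.0.16 (robust quasi-likelihood, prior count 0.125, R 4.3.3), with Benjamini-Hochberg adjustment over 15618 genes. A standard error is the log2 fold change divided by the square root of F. Plots used matplotlib 3.10.9. The fit was tried beforehand on simulated counts, with a single dispersion for all genes and no change in genes of low counts. That trial therefore does not cover genes near 0 in control mice. Positions and exon lengths came from GENCODE M21, matched by identifier for 19526 genes. How reads of overlapping genes were assigned is unknown; Trf, Slc11a2, Heph, Ftl1 and Hamp overlap another annotated gene, with at most 31 counts a mouse where that gene is in the table.

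The members and lists were chosen with earlier results of these data known. The named genes are the 10 members, every called gene of the other iron lists, the 3 neighbours on each side of Mfi2 and Trf, their 3 nearest profiles, and Hdac1 and Hdac2. Steap4, Pcbp1, Pcbp2, Ncoa4, Bmp6, Aco1, Ireb2, Egln2, Arnt and Vhl, and single marker genes, were added after their values were seen. Not in the table used here were Scara5, Hephl1, Ftmt, Hamp2, Hfe2, Il6, Flvcr1, Flvcr2 and Hp. The labels name each mouse but no batch, and an exact permutation test of 3 mice against 3 could not give a two-sided p below 0.10. Counting intervals were exact binomial at 95%, on counts summed over the mice of a group, and leave out the spread between mice. Alternatives changed the scaling, the test (DESeq2 1.42.0), the low-count filter, the prior count, the fold limit, the gene length, the promoter window and the mice included. The search of UTRs was chosen after seeing the data.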

Additional observations from a re-analysis of the deposited data

How the results depend on the processing

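Under the alternatives tried, none of the 4 called members, the called iron genes and the called neighbours of Mfi2 and Trf changed direction. Without the 2-fold limit, 3198 genes were called increased and 3168 decreased, and 17 of the other iron genes were called decreased in place of 6. With at least 10 counts required in every sample, which removes genes near 0 in control mice, 2 members (Trf and Cybrd1) and 2 neighbours of Mfi2 and Trf were called in place of 4 and 6. With each mouse left out in turn, the calls ranged from 1841 to 2109 increased and 1790 to 2012 decreased over all genes, from 13 to 15 increased and 4 to 6 decreased among the other iron genes, from 5 to 6 among the neighbours, and from 4 to 5 increased and 0 decreased among the members. Scaling by library totals only gave 2463 increased and 1538 decreased genes, against 1944 and 1990, and raised the median log2 fold change of all genes by 0.188, so small differences such as those of Slc11a2 (0.57) and Heph (-0.21) moved with it. Blvra was short of 2-fold in 6 alternatives and Slc46a1 was not called in 4. Fitted values of Hamp were 5.51 with a prior count of 2 and 9.93 without C3. With the loop letters alone, which 10.7% of genes hold in the 5′ UTR and 35.5% in the 3′ UTR, 6 members rather than 4 had a match. In the 50 bases after the start, 0 matched. In the 300-base promoter window, ACGTG occurred in 2 member windows rather than 1. No paired analysis was possible because the labels give the mice no shared replicate numbers.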

Other observations

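Genes of haem handling and of the mitochondrion were followed on the same samples. Of the 9 tested genes of haem synthesis, 0 were called by edgeR or by DESeq2, and 3 had an unadjusted p under 0.05. Cpox (log2 fold change -0.83, adjusted p = 0.0042) and Fech (-0.80, adjusted p = 0.0047) were lower at less than 2-fold in edgeR's test with Benjamini-Hochberg adjustment. Alas2, the red blood cell form of the first enzyme, had 119 counts in C3 against 5 and 17 in the other control mice. Of 8 tested genes of haem transport and breakdown, Hmox1, encoding the inducible haem oxygenase (2.44, adjusted p = 0.00056), Hpx, encoding the haem scavenger hemopexin (0 to 10 counts a control mouse, 438 to 564 a Hdac1/2-deleted mouse, adjusted p = 0.00024), and Hebp1, encoding a haem-binding protein (3.61, adjusted p = 1.1e-05), rose. Hpx met the filter on low counts only through Hdac1/2-deleted mice. Hebp1 overlaps Fam234b on the opposite strand (5354 to 9433 counts in control mice, 1382 to 2583 in Hdac1/2-deleted mice), and without the strand setting their reads cannot be told apart. Blvra, encoding a biliverdin reductase, fell (-1.01, adjusted p = 0.0011) and stood at the 2-fold limit, short of it without C3 or H9 (-0.95 in both). Hmox1 is also a macrophage gene. The summed macrophage list was higher in all 3 Hdac1/2-deleted mice, with 4 of 7 tested markers called increased and Adgre1, Cd68 and Lyz2 not called. The part of macrophages in the Hmox1 value was not tested.

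Of 16 genes of mitochondrial iron and iron-sulfur clusters, Cisd1, encoding the outer membrane protein mitoNEET, was called decreased (-1.54, adjusted p = 6.5e-05) and 0 were called increased by this test, with 0 by DESeq2 and 6 higher at an unadjusted p under 0.05. In either direction, 8 of the 16 had an adjusted p of at most 0.05, as had 3198 higher and 3168 lower genes of all 15618 tested. The mitochondrial iron importer genes were at opposite signs within 2-fold, with Slc25a37 at -0.71 (adjusted p = 0.011) and Slc25a28 at 0.85 (adjusted p = 0.0022).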
